A study of Danio rerio with 24 samples.

Results

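The transporters that carry sodium, chloride, bicarbonate, sulfate, phosphate, citrate and calcium across cell membranes were followed in the larval zebrafish intestine at 5, 7 and 9 days post fertilization (dpf). The genes were chosen by name. Of the 30263 genes in the table of RNA counts, 70 had symbols of the solute carrier families slc4a, slc8a, slc9a, slc12a, slc13a, slc20a, slc26a or slc34a, and 3 entries named for the scaffold proteins slc9a3r1 and slc9a3r2 were left out. By family there were 14 slc4a, 7 slc8a, 10 slc9a, 14 slc12a, 6 slc13a, 3 slc20a, 12 slc26a and 4 slc34a genes. One of them, slc4a1ap, is named for an adaptor of slc4a1 and is not itself a transporter, and 2 symbols, slc12a2 and slc26a6, are carried by 2 identifiers each.

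The larvae were of the AB strain, wild type at all 3 ages, and all carried the tg(cldn15la:GFP) transgene, so there is no group without it. They were reared at 28.5 °C and fed a dry diet with rotifers and Artemia, and the intestines of 10 larvae were dissected and pooled for each RNA library. Each age has 3 libraries, written below as 9dpf_2 for the second at 9 dpf. Nothing in the labels ties pools to clutches, so p values cover only the variation among these pools, which may be technical. In a pooled organ, fewer cells of a type and less RNA per cell cannot be told apart.

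The absorbing cells of the intestine take up salts by coupling them to the sodium gradient that the sodium pump maintains. Sodium cotransporters of the slc13a, slc20a and slc34a families bring in sulfate, dicarboxylates, citrate and phosphate. Exchangers trade sodium for protons (slc9a), chloride for bicarbonate, sulfate or oxalate (slc26a and part of slc4a), and sodium for calcium (slc8a), while slc4a4 and its relatives move sodium with bicarbonate and the slc12a family moves chloride with sodium, potassium or both. Roles given below for single genes are those known for the mammalian protein of the same name unless zebrafish is named.

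The libraries held 7014333 to 14327144 reads, and values are read counts divided by a size factor of the library, called normalized counts below and given as each library's value or as mean ± SD of the 3 libraries of an age. A count of 0 would allow up to 3 reads, worth 2.56 to 3.87 normalized counts, for counting error only, and all 70 genes were above that in every library. 5dpf_2 stood apart, with 6542557 normalized counts in all against 9053496 to 14058095 in the other 8 libraries. By age these totals were 6542557 to 9983920 at 5 dpf, 9053496 to 12129814 at 7 dpf and 10126616 to 14058095 at 9 dpf. Every 9 dpf total was thus above every 5 dpf total. The tissue label was checked against 15 enterocyte genes, whose summed normalized counts were 102639 to 182185 at 5 dpf, 195646 to 300321 at 7 dpf and 248519 to 379615 at 9 dpf. The intestinal gene cldn15la, named in the transgene, is among these 15 genes. It was at 9486 to 16589.5 at 5 dpf, 12027 to 18582 at 7 dpf and 14931 to 20595 at 9 dpf. The 70 transporter genes held 0.360% to 0.415% of a library's normalized counts at 5 dpf, 0.433% to 0.492% at 7 dpf and 0.380% to 0.388% at 9 dpf. Values were not divided by transcript length, so amounts of transcript are compared only within a gene. Where genes are called most read or split by their mean below, this is by reads and not by amount of transcript.

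Over the whole span, from 5 to 9 dpf, 6 of the 70 genes rose and 9 fell, by limma with an adjusted p under 0.05 over all 24298 genes tested. The background was 12.6% of all genes higher and 4.28% lower, against 8.57% and 12.9% of the transporters. The risers were slc13a1, slc34a2b, slc26a1, slc4a4b, slc26a11 and slc4a4a. The fallers were slc9a3.2, slc26a5, slc13a3, slc8a3, one slc26a6 entry, slc12a5b, slc12a7b, slc8a1b and slc4a11. Quantile scaling and cyclic loess each left 6 higher and 19 lower. These scalings also moved all genes, to 2723 higher and 2395 lower and to 2875 and 2346, against 3053 and 1041 in the scaling used. The fallers numbered 4 in the fit that leaves out 9dpf_2 and 5 in the fit that leaves out 9dpf_3. Lower calls over all genes were 390 and 471 in those fits. The median change of the 70 was log2 -0.25, against -0.04 for all genes tested. Counted without a test, 8 genes had every 9 dpf library above every 5 dpf library and 23 had every 9 dpf library below every 5 dpf library, where the background was 20.5% and 15.7% of all genes. At 7 against 5 dpf such counts were 10 above and 6 below (background 11.9% and 7.49%), and at 9 against 7 dpf 2 above and 16 below (background 11.5% and 8.89%).

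**Figure D1:**
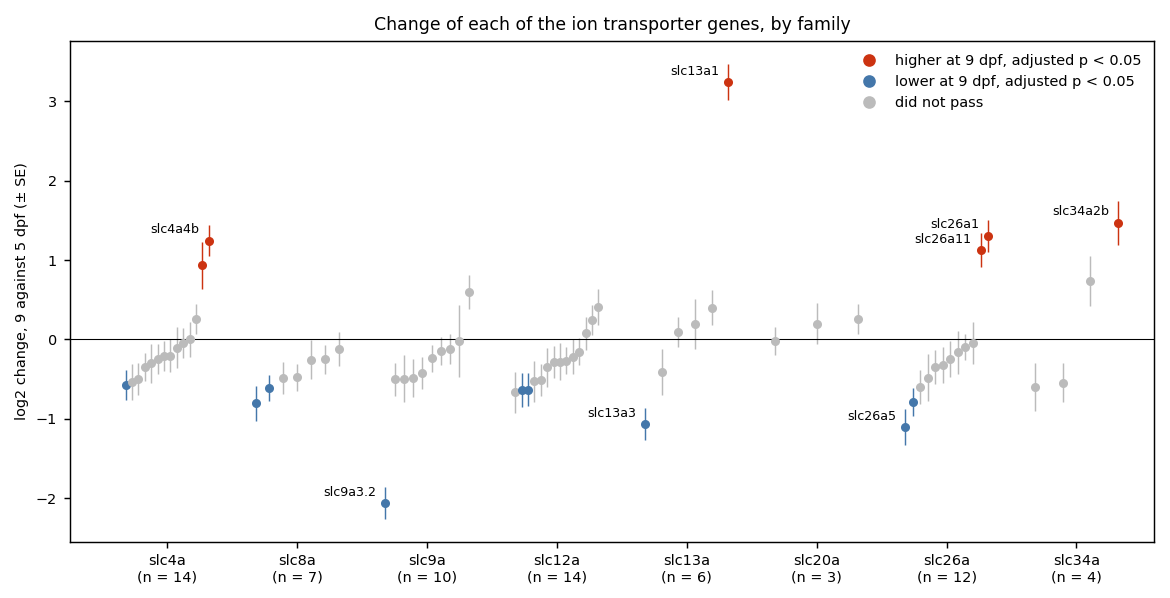
Log2 change at 9 against 5 dpf (vertical axis, point ± SE from limma on log2(value + 1), 3 libraries per age) of each of the 70 genes, in columns by family with the number of genes below. Red points passed as higher at 9 dpf, blue points as lower and grey points did not pass; slc13a1 at log2 3.24 and slc9a3.2 at log2 -2.06 lie farthest from 0.

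Of the 41 genes with a mean under 150 normalized counts over the 9 libraries, a bound set after the values were seen, 5 were called at 9 against 5 dpf and each was lower, where the background among all genes under that mean was 4.51% lower and 4.71% higher. Of the 29 genes at or above it 6 were called higher and 4 lower, against a background of 27.5% higher and 3.85% lower. The median change was log2 -0.35 under that mean (all genes -0.20) and 0.20 at or above it (all genes 0.34).

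For the single steps the background is given over all genes tested and is not split by mean. At 9 against 5 dpf that split gave 27.5% higher at a mean of 150 or more and 4.71% under it. By step, 7 genes rose and 1 fell at 7 against 5 dpf, where the background was 2.63% higher and 1.43% lower. The risers were slc13a1, slc34a2b, slc13a5a, slc13a4, slc26a11, slc4a4b and slc26a1, and slc9a3.2 fell. Without 7dpf_1 only 2 were higher, and after quantile scaling 7 were higher and 6 lower, after cyclic loess 7 and 4. Calls over all genes also moved, from 638 higher and 347 lower to 198 and 117 without 7dpf_1. They were 1229 and 1046 after quantile scaling and 1092 and 997 after cyclic loess. The count of fallers among the transporters was 2 in DESeq2 and without 5dpf_2, and 0 without 5dpf_1. Lower calls over all genes in those fits were 421 in DESeq2, 458 without 5dpf_2 and 151 without 5dpf_1. At 9 against 7 dpf slc12a10.1, slc9a3.2 and slc13a4 fell and 0 rose in limma, where the background was 0.383% lower and 1.5% higher. At an unadjusted p under 0.05 in limma there were 3 higher and 16 lower, and no background is given for that cut. In edgeR 0 were higher and 4 lower, where over all genes it called 656 higher and 134 lower. DESeq2 called 1 and 4, where over all genes it called 719 and 140. With quantile scaling 1 gene was higher and 10 were lower, and with cyclic loess 1 and 11. Over all genes these scalings called 891 higher and 661 lower, and 1255 and 789, against 365 and 93 in the scaling used. The fallers among the transporters were 1 without 7dpf_1 or 9dpf_3 and 5 without 7dpf_3, and 1 transporter was higher without 5dpf_2 or 7dpf_3. Lower calls over all genes were 21 without 7dpf_1, 24 without 9dpf_3 and 145 without 7dpf_3. Higher calls over all genes were 833 without 5dpf_2 and 818 without 7dpf_3.

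**Figure D2:**
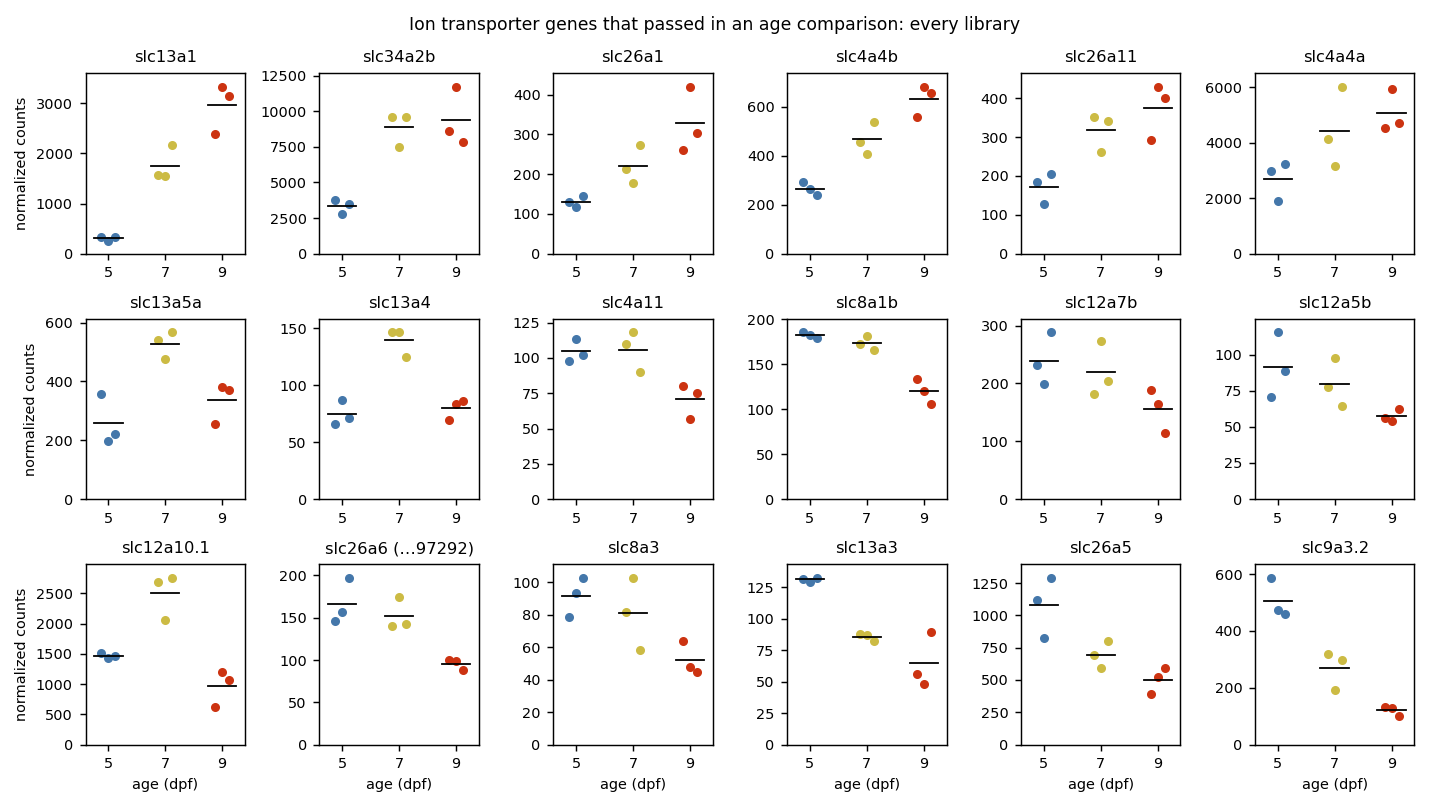
Normalized counts (vertical axis from 0, scaled per panel) by age in dpf of the 18 genes that passed in an age comparison, ordered by their change at 9 against 5 dpf. Each point is a library and each line the mean of 3; slc13a1 has all 9 dpf libraries above all 5 dpf libraries, and slc13a4 and slc13a5a are highest at 7 dpf.

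From 5 to 9 dpf slc13a1, slc26a1 and slc26a11, which carry sulfate, were called higher. slc13a4 and slc26a2, which also carry sulfate, were not called. The background was 12.6% of all genes tested higher, and 27.5% of those with a mean of 150 or more. The other slc26a genes, of a family that also trades sulfate, were not counted in this group and are given further below. Of them slc26a5 and an slc26a6 entry (log2 -0.78, adjusted p = 0.00415 in limma) fell. Of the 70 genes slc13a1 had the largest rise. slc13a1 (ENSDARG00000045638), the sodium and sulfate cotransporter of the brush border, had 337, 260.2 and 335 normalized counts in the 5 dpf libraries, 1566, 1545 and 2166 in the 7 dpf libraries and 2388, 3334 and 3155 in the 9 dpf libraries. The 3 ages did not overlap in any library. It was higher at 7 against 5 dpf (log2 2.49, SE 0.23, adjusted p = 1.18e-06) and at 9 against 5 dpf (log2 3.24, SE 0.23, adjusted p = 8.91e-09), while the step from 7 to 9 dpf did not pass (log2 0.75, adjusted p = 0.0982). The 2 steps differed, the second being smaller (log2 -1.74, SE 0.40, adjusted p = 0.0352). The call for slc13a1 in the difference of the steps was lost with adjusted p = 0.0724 with 5dpf_1 left out, 0.177 with 7dpf_1 left out, 0.199 with 7dpf_3 left out, 0.0769 with 9dpf_1 left out and 0.0604 with 9dpf_3 left out.

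slc26a1 (ENSDARG00000029832), an exchanger of sulfate, oxalate and bicarbonate of the basolateral membrane, had 129, 117 and 144 normalized counts in the 5 dpf libraries, 213, 177 and 274 in the 7 dpf libraries and 261, 420.0 and 303 in the 9 dpf libraries. Every 9 dpf library was above every 5 dpf library, and the 9 and 7 dpf libraries overlapped. Its change was log2 1.31, SE 0.20, adjusted p = 0.000132 at 9 against 5 dpf and log2 0.75, adjusted p = 0.0368 at 7 against 5 dpf. The call for slc26a1 at 7 against 5 dpf was lost with adjusted p = 0.116 with 5dpf_1 left out, 0.0851 with 5dpf_2 left out, 0.128 with 7dpf_1 left out, 0.199 with 7dpf_3 left out and 0.0535 with 9dpf_3 left out. slc26a11 (ENSDARG00000043021), a sodium-independent sulfate transporter, had 183, 127 and 206 normalized counts in the 5 dpf libraries, 351, 261 and 340.2 in the 7 dpf libraries and 293, 429.8 and 400.5 in the 9 dpf libraries. Here too the 9 and 5 dpf libraries were apart and the 9 and 7 dpf libraries overlapped. It was higher at 9 against 5 dpf (log2 1.13, SE 0.21, adjusted p = 0.000814) and at 7 against 5 dpf (log2 0.90, adjusted p = 0.0154). The call for slc26a11 at 7 against 5 dpf was lost with adjusted p = 0.0575 with 5dpf_2 left out and 0.109 with 7dpf_1 left out.

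slc13a4 (ENSDARG00000059053), a second sodium and sulfate cotransporter, was high at 7 dpf alone, with 65.8, 86.7 and 71.5 normalized counts in the 5 dpf libraries, 147, 147 and 125 in the 7 dpf libraries and 69, 83.4 and 86.6 in the 9 dpf libraries. Every 7 dpf library was above every library of the other ages, and the 9 and 5 dpf libraries overlapped (log2 0.09, adjusted p = 0.751). It was higher at 7 against 5 dpf (log2 0.90, adjusted p = 0.00622) and lower at 9 against 7 dpf (log2 -0.80, adjusted p = 0.0253). The call for slc13a4 at 7 against 5 dpf was lost with adjusted p = 0.0554 with 7dpf_1 left out. Its steps differed (log2 -1.70, SE 0.32, adjusted p = 0.00877). The call for slc13a4 in the difference of the steps was lost with adjusted p = 0.105 with 7dpf_1 left out. The call for slc13a4 at 9 against 7 dpf was lost with adjusted p = 0.158 with 7dpf_1 left out, 0.0871 with 7dpf_2 left out, 0.0729 with 9dpf_1 left out, 0.0847 with 9dpf_2 left out and 0.0687 with 9dpf_3 left out. slc26a2, a sulfate and chloride exchanger needed by cartilage, was at 131 ± 10.4 at 5 dpf, 128 ± 7.30 at 7 dpf and 123 ± 5.06 at 9 dpf (SD, n = 3), and its 9 against 5 dpf change was log2 -0.09, adjusted p = 0.728.

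Of 16 further genes of sulfate use, which activate, transfer or recycle sulfate, 3 rose at 9 against 5 dpf, which is 18.8%, where the background was 12.6% of all genes tested and 27.5% of those with a mean of 150 or more. The list, like the other lists of partner genes below, was written with earlier results of these data known. impad1, a phosphatase of the sulfate donor's by-product in the Golgi, rose by log2 0.94 to 392 ± 56.7 at 9 dpf, against 207 ± 46.5 at 5 dpf (adjusted p = 0.00324). bpnt1, its counterpart in the cytosol, was at 873 ± 115 at 9 dpf and 474 ± 133 at 5 dpf (log2 0.92, adjusted p = 0.0201). The call for bpnt1 at 9 against 5 dpf was lost with adjusted p = 0.0895 with 5dpf_2 left out, 0.107 with 9dpf_2 left out and 0.0552 with 9dpf_3 left out. After quantile scaling its change was log2 0.52 and after cyclic loess 0.50. sumf1, which activates sulfatases, was at 165 ± 30.3 at 9 dpf and 97 ± 9.73 at 5 dpf (log2 0.75, adjusted p = 0.0120). The call for sumf1 at 9 against 5 dpf was lost with adjusted p = 0.0572 with 5dpf_1 left out, 0.0819 with 9dpf_2 left out and 0.0611 with 9dpf_3 left out.

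Among the phosphate transporters slc34a2b rose and the other 6 genes of the slc34a and slc20a families passed in no comparison. slc34a2b (ENSDARG00000036864), one of 2 copies of the intestinal sodium and phosphate cotransporter, had 3763, 2808 and 3519 normalized counts in the 5 dpf libraries, 9617, 7516 and 9628 in the 7 dpf libraries and 8625, 11732 and 7845 in the 9 dpf libraries. Both later ages were apart from 5 dpf in every library and overlapped each other. The change was log2 1.41, SE 0.28, adjusted p = 0.00474 at 7 against 5 dpf, and log2 1.47, SE 0.28, adjusted p = 0.000931 at 9 against 5 dpf. The call for slc34a2b at 7 against 5 dpf was lost with adjusted p = 0.0511 with 7dpf_1 left out. After quantile scaling these were log2 0.91 and 0.89, and cyclic loess gave, for 9 against 5 dpf, 0.92. Its copy slc34a2a (ENSDARG00000012903) had 2224, 1342 and 2067 normalized counts in the 5 dpf libraries, 3403, 1916 and 3564 in the 7 dpf libraries and 2023, 4663 and 3009 in the 9 dpf libraries. These libraries overlapped between ages, and the 9 against 5 dpf change was log2 0.73, adjusted p = 0.110.

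The slc34a1 copies, relatives of the phosphate cotransporter of the kidney, passed in no comparison. slc34a1a was at 66.6 ± 7.80 at 5 dpf, 62.1 ± 20.7 at 7 dpf and 45.7 ± 8.48 at 9 dpf (SD, n = 3) and slc34a1b at 39.3, 34.7 and 26.5 at 5, 7 and 9 dpf. The phosphate transporters of the slc20a family, found in most cell types, changed by log2 -0.02 (slc20a1a), 0.20 (slc20a1b) and 0.26 (slc20a2) at 9 against 5 dpf, with adjusted p from 0.368 to 0.960. slc20a1b was at 778 to 1508 at 5 dpf, 892 to 1302 at 7 dpf and 1232 to 1525 at 9 dpf, overlapping throughout. Of 20 tested genes of phosphate control, 1 rose and 2 fell at 9 against 5 dpf, or 5% and 10%, where the background was 12.6% higher and 4.28% lower. The alkaline phosphatase alpi.2 was at 1392 ± 356 at 9 dpf and 579 ± 187 at 5 dpf (log2 1.29, adjusted p = 0.00144, and log2 0.84 after cyclic loess). The phosphate exporter xpr1a was at 41.2 ± 2.17 at 9 dpf and 77.7 ± 9.77 at 5 dpf (log2 -0.90, adjusted p = 0.00370). enpp1, which makes pyrophosphate, was at 217 ± 47.5 at 9 dpf and 389 ± 95 at 5 dpf (log2 -0.84, adjusted p = 0.00897).

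Of the carboxylate transporters of the slc13a family, slc13a3 fell over the whole span and slc13a5a rose at 7 against 5 dpf. slc13a2 (ENSDARG00000053853), the cotransporter of sodium with succinate and other dicarboxylates at the brush border, held the most reads of the 70 genes, with 10839.5, 6883 and 9893 normalized counts in the 5 dpf libraries, 15265, 9823 and 16204 in the 7 dpf libraries and 7862, 13385 and 10524 in the 9 dpf libraries. Libraries of all 3 ages overlapped, and its 9 against 5 dpf change was log2 0.20, adjusted p = 0.697. slc13a5a (ENSDARG00000077691), a citrate cotransporter, had 359, 196 and 222 normalized counts in the 5 dpf libraries, 539, 478 and 568 in the 7 dpf libraries and 255, 382 and 369 in the 9 dpf libraries. All 7 dpf libraries lay above those of 5 and 9 dpf, and the 9 and 5 dpf libraries overlapped. It was higher at 7 against 5 dpf (log2 1.07, SE 0.22, adjusted p = 0.00670), and its steps differed (log2 -1.75, SE 0.39, adjusted p = 0.0257). The call for slc13a5a in the difference of the steps was lost with adjusted p = 0.192 with 7dpf_1 left out, 0.0676 with 7dpf_3 left out and 0.0559 with 9dpf_1 left out. The fall from 7 to 9 dpf did not pass by itself (log2 -0.67, adjusted p = 0.124).

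slc13a3 (ENSDARG00000069478), the dicarboxylate cotransporter of the basolateral side, had 132, 129.7 and 133 normalized counts in the 5 dpf libraries, 88, 86.9 and 82.2 in the 7 dpf libraries and 55.8, 48.1 and 89.7 in the 9 dpf libraries. The 5 dpf libraries lay close together and above all others, and 9dpf_3 reached the 7 dpf values. It fell at 9 against 5 dpf (log2 -1.07, SE 0.21, adjusted p = 0.00115). The copy slc13a5b was at 49.4 ± 13.3 at 5 dpf, 34 ± 7.33 at 7 dpf and 38 ± 14 at 9 dpf (SD, n = 3) and passed in no comparison (9 against 5 dpf log2 -0.41, adjusted p = 0.343).

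Both slc4a4 genes rose from 5 to 9 dpf. slc4a4b (ENSDARG00000044808), one of 2 copies of the electrogenic sodium and bicarbonate cotransporter, had 294, 264 and 239 normalized counts in the 5 dpf libraries, 457, 405 and 539 in the 7 dpf libraries and 558, 682 and 656 in the 9 dpf libraries. The 3 ages were apart in every library. It was higher at 9 against 5 dpf (log2 1.25, SE 0.19, adjusted p = 0.000124) and at 7 against 5 dpf (log2 0.81, adjusted p = 0.0169). The call for slc4a4b at 7 against 5 dpf was lost with adjusted p = 0.0630 with 5dpf_3 left out, 0.0918 with 7dpf_1 left out and 0.0912 with 7dpf_3 left out. slc4a4a (ENSDARG00000013730) was at 2706 ± 723 at 5 dpf, 4435 ± 1459 at 7 dpf and 5065 ± 767 at 9 dpf (SD, n = 3). Its libraries ran 4540.3 to 5945 at 9 dpf and 1885 to 3247 at 5 dpf, without overlap (log2 0.93, SE 0.29, adjusted p = 0.0315). Under quantile scaling the change of slc4a4a was log2 0.32, and under cyclic loess 0.40. The call for slc4a4a at 9 against 5 dpf was lost with adjusted p = 0.0552 with 5dpf_1 left out, 0.103 with 5dpf_2 left out, 0.0527 with 7dpf_1 left out, 0.143 with 9dpf_2 left out and 0.0825 with 9dpf_3 left out.

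In the rest of the slc4a family slc4a11, which moves protons or water in the cornea, was at 105 ± 8.16 at 5 dpf, 106 ± 14.6 at 7 dpf and 70.7 ± 12.2 at 9 dpf (SD, n = 3) and lower at 9 against 5 dpf (log2 -0.57, adjusted p = 0.0421). The call for slc4a11 at 9 against 5 dpf was lost with adjusted p = 0.0564 with no filter, 0.0634 in DESeq2, 0.0734 with 5dpf_1 left out, 0.126 with 5dpf_2 left out, 0.0681 with 5dpf_3 left out, 0.0638 with 7dpf_1 left out, 0.226 with 9dpf_2 left out and 0.0808 with 9dpf_3 left out. The other 11 genes, which are slc4a1a, slc4a1b, slc4a2a, slc4a2b, slc4a5, SLC4A5 (1 of many), slc4a7, slc4a8, slc4a10a, slc4a10b and the adaptor slc4a1ap, passed in no comparison; their means over the 9 libraries ran from 37.2 to 463 and their 9 against 5 dpf changes from log2 -0.53 to 0.26. slc4a1a, the chloride and bicarbonate exchanger of red cells, was at 119 ± 13.5 at 5 dpf, 77.2 ± 13.7 at 7 dpf and 84.3 ± 18.3 at 9 dpf (SD, n = 3). The 11 red cell genes in the table had summed counts of 647 to 725 at 9 dpf and 867 to 1181 at 5 dpf. At 9 against 5 dpf 1 of the 8 tested, sptb, was lower, or 12.5%, where the background was 4.28%. Of 17 genes named as carbonic anhydrases, a family whose enzymes supply bicarbonate, 1 passed in an age comparison, 7 against 5 dpf. The background there was 2.63% higher and 1.43% lower. The gene that passed was the membrane-bound ca4b, at 494 ± 50.8 at 7 dpf and 264 ± 39.8 at 5 dpf (log2 0.91, adjusted p = 0.0165).

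The sodium and proton exchangers held the largest fall. slc9a3.2 (ENSDARG00000036722), a copy of the apical exchanger of the intestine and kidney, had 588, 473 and 458 normalized counts in the 5 dpf libraries, 320.1, 194 and 298 in the 7 dpf libraries and 133, 128 and 102 in the 9 dpf libraries. The 3 ages did not overlap, and each step passed, 7 against 5 dpf with log2 -0.93, SE 0.20, adjusted p = 0.0102 and 9 against 7 dpf with log2 -1.13, SE 0.20, adjusted p = 0.00496. The call for slc9a3.2 at 9 against 7 dpf was lost with adjusted p = 0.0592 with 7dpf_1 left out and 0.0528 with 9dpf_3 left out. The call for slc9a3.2 at 7 against 5 dpf was lost with adjusted p = 0.0697 with 5dpf_1 left out. Over both steps the change was log2 -2.06, SE 0.20, adjusted p = 6.97e-07. The difference between its steps did not pass (log2 -0.20, adjusted p = 0.956). slc9a3.1, which lies near it on the RefSeq assembly GRCz12tu with 1 gene between, had 64.5, 85.8 and 49.4 normalized counts in the 5 dpf libraries, 47.5, 60.8 and 39.7 in the 7 dpf libraries and 42.6, 44.2 and 52.1 in the 9 dpf libraries. Reads shared by such close copies were not resolved here. Its 9 against 5 dpf change was log2 -0.48, adjusted p = 0.166.

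The other 8 slc9a genes also passed in no comparison, and 6 of them are described here. slc9a6a, an exchanger of endosomes and the most read gene of the family, was at 511 ± 82.4 at 5 dpf, 618 ± 107 at 7 dpf and 778 ± 156 at 9 dpf (SD, n = 3). Its 9 dpf libraries, 603, 831 and 901, were all above its 5 dpf libraries, 591, 426 and 517, but the change did not pass (log2 0.60, adjusted p = 0.0635). slc9a2, slc9a5, slc9a6b, slc9a7 and slc9a8 changed by between log2 -0.50 and -0.12 at 9 against 5 dpf. Of 21 tested kinases and scaffolds that act on these transporters, 2 rose at 9 against 5 dpf, or 9.52% where the background was 12.6%. sgk1, a kinase that increases sodium uptake, was at 4699.6 ± 1031 at 9 dpf and 2229.6 ± 698 at 5 dpf (log2 1.11, adjusted p = 0.0109), and its change was smaller under quantile scaling and under cyclic loess, at log2 0.54 and 0.58. The call for sgk1 at 9 against 5 dpf was lost with adjusted p = 0.0739 with 9dpf_2 left out. chp1, a cofactor of the exchangers, was at 1205 ± 153 at 9 dpf and 711 ± 81.1 at 5 dpf (log2 0.76, adjusted p = 0.0190), and its change under those scalings was log2 0.31 and 0.30. The call for chp1 at 9 against 5 dpf was lost with adjusted p = 0.0868 with 9dpf_2 left out and 0.0894 with 9dpf_3 left out.

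Of the anion exchangers of the slc26a family, slc26a5 and an slc26a6 entry fell. slc26a5 (ENSDARG00000022424), known in mammals as the motor protein of outer hair cells, had 1116, 826 and 1293 normalized counts in the 5 dpf libraries, 690.3, 589.7 and 803 in the 7 dpf libraries and 389.9, 522 and 592 in the 9 dpf libraries. Every 9 dpf library was below every 5 dpf library (log2 -1.10, SE 0.23, adjusted p = 0.00212). Of 10 tested hair cell and inner ear genes 2 were lower at 9 against 5 dpf, myo7aa and s100t, or 20%, where the background was 4.28%. At an unadjusted p under 0.05 in limma, 1 gene of the list was higher and 3 were lower, with no background given for that cut. The list's summed counts were 716 to 809 at 9 dpf and 841 to 1019 at 5 dpf. None of these genes was at 0 in all libraries, and their part in the fall of slc26a5 was not tested. The slc26a6 entry ENSDARG00000097292 had 146, 157 and 198 normalized counts in the 5 dpf libraries, 139.8, 175 and 143 in the 7 dpf libraries and 101, 99.1 and 87.6 in the 9 dpf libraries, with the 9 dpf libraries below all others (log2 -0.78, SE 0.18, adjusted p = 0.00415). The second entry, ENSDARG00000055835, was at 815 ± 108 at 5 dpf, 1204 ± 281 at 7 dpf and 828 ± 300.5 at 9 dpf (SD, n = 3) and did not pass (log2 -0.04, adjusted p = 0.932), and for both, reads may be shared between copies. slc26a6 exchanges chloride with bicarbonate and oxalate.

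slc26a3.2 (ENSDARG00000003615), a copy of the chloride and bicarbonate exchanger of the colon and the most read slc26a gene, had 2351, 1269 and 2403 normalized counts in the 5 dpf libraries, 1309.9, 1008 and 2133 in the 7 dpf libraries and 1374, 1742 and 1092 in the 9 dpf libraries. Its libraries overlapped between ages, and the 9 against 5 dpf change was log2 -0.48, adjusted p = 0.262. slc26a3.1 was at 79.1 ± 12.5 at 5 dpf, 53.3 ± 10.7 at 7 dpf and 61.7 ± 3.86 at 9 dpf (SD, n = 3), and slc26a4, a chloride and iodide exchanger that adjoins slc26a3.2 on GRCz12tu, at 63.9 ± 13.4 at 5 dpf, 57.7 ± 11.9 at 7 dpf and 50.4 ± 5.45 at 9 dpf (SD, n = 3). With slc26a2, slc26a10, slc26a6l, SLC26A6 (1 of many) and the second slc26a6 entry they made 8 genes of the family that did not pass; their means over the 9 libraries ran from 39.2 to 1631 and their 9 against 5 dpf changes from log2 -0.60 to -0.04.

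In the slc12a family, slc12a10.1 (ENSDARG00000055313), of a fish branch close to the sodium and chloride cotransporter, was highest at 7 dpf, with 1512, 1436 and 1464 normalized counts in the 5 dpf libraries, 2687, 2056 and 2763 in the 7 dpf libraries and 614, 1203 and 1072 in the 9 dpf libraries. Every 9 dpf library was below every library of the other ages, and every 7 dpf library was above them. It fell at 9 against 7 dpf (log2 -1.42, SE 0.26, adjusted p = 0.00505), and its steps differed (log2 -2.18, SE 0.44, adjusted p = 0.0164). The call for slc12a10.1 in the difference of the steps was lost with adjusted p = 0.171 with 7dpf_1 left out. The 7 against 5 dpf change (log2 0.75, adjusted p = 0.105) and the 9 against 5 dpf change (log2 -0.67, adjusted p = 0.0759) did not pass. slc12a10.3, next to it on GRCz12tu, was at 145 ± 7.13 at 5 dpf, 134 ± 24.9 at 7 dpf and 104 ± 29.2 at 9 dpf (SD, n = 3), and slc12a10.2, known in zebrafish from the ionocytes of the skin, at 75.8 ± 26.9 at 5 dpf, 59 ± 11.5 at 7 dpf and 57.7 ± 13.4 at 9 dpf (SD, n = 3). Neither passed. Of 14 tested ionocyte genes 1 was higher at 9 against 5 dpf, or 7.14%, where the background was 12.6%. It was the proton pump subunit atp6v1aa, at 1262 ± 277 at 9 dpf and 662 ± 161 at 5 dpf. The summed counts of the list, most of them from that gene, were 1385 to 1803 at 9 dpf and 991 to 1172 at 5 dpf, with no overlap, and the median change of its genes was log2 -0.44. Their part in the results on slc12a10 genes was not tested. The defining factors foxi3a and foxi3b were at 29.4 ± 8.57 and 28.9 ± 13.8 at 9 dpf and at 39.1 ± 5.21 and 40.7 ± 14.8 at 5 dpf.

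The potassium and chloride cotransporters slc12a5b, the form of neurons, and slc12a7b were lower at 9 against 5 dpf. slc12a5b was at 91.7 ± 22.5 at 5 dpf, 79.8 ± 16.7 at 7 dpf and 57.5 ± 4.53 at 9 dpf (SD, n = 3) and fell (log2 -0.64, adjusted p = 0.0431). The call for slc12a5b at 9 against 5 dpf was lost with adjusted p = 0.0558 with no filter, 0.0621 after quantile scaling, 0.0650 after cyclic loess, 0.210 with 5dpf_2 left out, 0.0723 with 5dpf_3 left out, 0.0613 with 7dpf_1 left out, 0.0742 with 9dpf_1 left out, 0.149 with 9dpf_2 left out and 0.0774 with 9dpf_3 left out. slc12a7b was at 239 ± 45.6 at 5 dpf, 219.6 ± 48 at 7 dpf and 156 ± 38.4 at 9 dpf (SD, n = 3) and fell (log2 -0.63, adjusted p = 0.0427). The call for slc12a7b at 9 against 5 dpf was lost with adjusted p = 0.0549 with no filter, 0.0863 with 5dpf_1 left out, 0.143 with 5dpf_3 left out, 0.0533 with 7dpf_1 left out, 0.0878 with 9dpf_2 left out and 0.248 with 9dpf_3 left out. Of 17 neuron genes 1, nos1, was lower at 9 against 5 dpf, or 5.88%, where the background was 4.28%. The neuron genes had summed counts of 1078 to 1169 at 9 dpf and 1349.7 to 1446 at 5 dpf, with no overlap. What they contribute to the fall of slc12a5b was not tested. The remaining slc12a genes were slc12a1, both slc12a2 entries, slc12a3, slc12a4, slc12a5a, slc12a7a, slc12a8 and slc12a9; with slc12a10.2 and slc12a10.3 they made 11 that did not pass, and their means over the 9 libraries ran from 56.1 to 839 and their 9 against 5 dpf changes from log2 -0.53 to 0.41. The more read slc12a2 entry, ENSDARG00000104573, the sodium, potassium and chloride cotransporter of secreting epithelia, had 433, 338 and 385 normalized counts in the 5 dpf libraries, 607, 486 and 587 in the 7 dpf libraries and 451, 443 and 471 in the 9 dpf libraries. All its 9 dpf libraries were above its 5 dpf libraries, but the change did not pass (log2 0.25, adjusted p = 0.379).

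Of the sodium and calcium exchangers, slc8a1b and slc8a3 fell. slc8a1b (ENSDARG00000043406) was at 182 ± 3.47 at 5 dpf, 173 ± 7.94 at 7 dpf and 119.7 ± 14.3 at 9 dpf (SD, n = 3) and lower at 9 against 5 dpf (log2 -0.61, adjusted p = 0.0145). The call for slc8a1b at 9 against 5 dpf was lost with adjusted p = 0.0529 with 5dpf_1 left out, 0.0525 with 9dpf_2 left out and 0.0940 with 9dpf_3 left out. slc8a3 (ENSDARG00000004931), a form of muscle and brain, was at 91.7 ± 12.3 at 5 dpf, 81.1 ± 22 at 7 dpf and 52.3 ± 10.2 at 9 dpf (SD, n = 3) and fell (log2 -0.81, adjusted p = 0.0158). The call for slc8a3 at 9 against 5 dpf was lost with adjusted p = 0.0547 with 5dpf_3 left out, 0.0717 with 9dpf_2 left out and 0.0802 with 9dpf_3 left out. Of 18 muscle genes 5 were lower at 9 against 5 dpf, or 27.8%, where the background was 4.28% lower. The summed counts of the muscle genes were 9103 to 12572 at 9 dpf and 9468 to 15896 at 5 dpf. Their part in these falls was not tested. slc8a1a, the form of the heart, was the most read of the family, at 229 ± 39.2 at 5 dpf, 221 ± 26.3 at 7 dpf and 191 ± 21.2 at 9 dpf (SD, n = 3). It passed in no comparison, nor did slc8a2a, slc8a2b, slc8a4a and slc8a4b, and their means over the 9 libraries ran from 51.6 to 214 and their 9 against 5 dpf changes from log2 -0.49 to -0.12. Of 19 tested genes of calcium transport 1 rose at 9 against 5 dpf, the mitochondrial exchanger slc8b1, at 136 ± 6.81 at 9 dpf and 74.3 ± 7.18 at 5 dpf (log2 0.86, adjusted p = 0.00162). That is 5.26%, where the background was 12.6% higher. The calcium pump gene atp2b3a fell, at 111 ± 14.3 at 9 dpf and 173 ± 11.4 at 5 dpf (log2 -0.64, adjusted p = 0.0120). The call for atp2b3a at 9 against 5 dpf was lost with adjusted p = 0.0531 with 5dpf_1 left out, 0.0696 with 9dpf_2 left out and 0.0656 with 9dpf_3 left out.

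The sodium pump and chloride channels work beside these carriers. Of 19 sodium pump genes 2 rose and 1 fell at 9 against 5 dpf, or 10.5% and 5.26%, near the background of 12.6% higher and 4.28% lower. The catalytic subunit atp1a1a.1 had 4106, 2195 and 3827 normalized counts in the 5 dpf libraries, 7070.0, 5316 and 7633 in the 7 dpf libraries and 6757, 9700.4 and 7261 in the 9 dpf libraries (log2 1.26, adjusted p = 0.00544, and log2 0.72 under either quantile scaling or cyclic loess). atp1b1b was at 75.8 ± 8.38 at 9 dpf and 44.7 ± 5.25 at 5 dpf (log2 0.75, adjusted p = 0.0274). The call for atp1b1b at 9 against 5 dpf was lost with adjusted p = 0.1002 with 5dpf_1 left out, 0.135 with 9dpf_2 left out and 0.0612 with 9dpf_3 left out. The small pump regulator fxyd6l was at 41.1 ± 13.2 at 9 dpf and 83.2 ± 25 at 5 dpf (log2 -1.01, adjusted p = 0.00921). The call for fxyd6l at 9 against 5 dpf was lost with adjusted p = 0.0573 with 5dpf_3 left out. The list of chloride channel genes also holds genes that do not code for channels, such as clca1. Of its 21 genes 3 rose and 2 fell, or 14.3% and 9.52% against that background. clca1, a secreted protein of mucous cells that acts on calcium-gated chloride currents, had 55.5, 55 and 56.2 normalized counts in the 5 dpf libraries, 167, 208 and 418 in the 7 dpf libraries and 429, 439.6 and 471 in the 9 dpf libraries. Its 3 ages were apart in every library (log2 2.98, SE 0.24, adjusted p = 5.90e-08). clca5.1 was at 33.4 ± 2.78 at 9 dpf and 16.7 ± 7.98 at 5 dpf (log2 1.06, adjusted p = 0.0302). The call for clca5.1 at 9 against 5 dpf was lost with adjusted p = 0.0666 in edgeR, 0.0689 with 5dpf_1 left out, 0.133 with 5dpf_3 left out, 0.0702 with 9dpf_1 left out, 0.0923 with 9dpf_2 left out and 0.0762 with 9dpf_3 left out. The channel clcn2a fell, at 64.9 ± 4.39 at 9 dpf and 107 ± 13.5 at 5 dpf (log2 -0.70, adjusted p = 0.0172). The call for clcn2a at 9 against 5 dpf was lost with adjusted p = 0.0524 with 5dpf_2 left out, 0.0589 with 5dpf_3 left out and 0.0821 with 9dpf_2 left out.

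**Figure D3:**
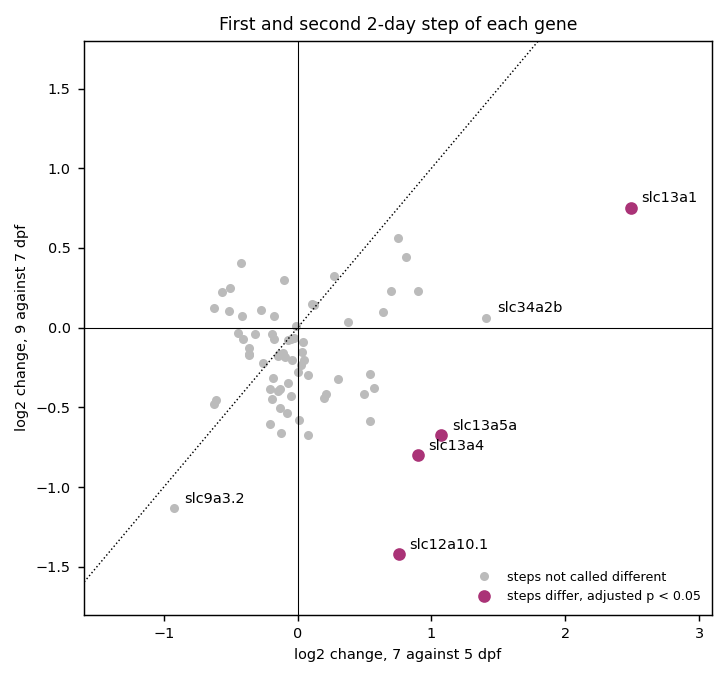
Log2 change at 7 against 5 dpf (horizontal axis) and at 9 against 7 dpf (vertical axis) of each of the 70 genes, from limma with 3 libraries per age; both changes use the 7 dpf libraries, and the dotted line marks equal steps. The 4 purple points, slc13a1, slc13a4, slc13a5a and slc12a10.1, lie below the line and passed the test of the difference of the steps.

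The difference between the step from 7 to 9 dpf and the step from 5 to 7 dpf passed for 4 of the 70 genes, slc12a10.1, slc13a5a, slc13a1 and slc13a4, and each had the more negative second step. The background was 0.362% of all genes with a more negative and 0.642% with a more positive second step. The count was 0 without 7dpf_1 and 2 without 7dpf_3 or 9dpf_1. For those fits no count of this difference over all genes is given. Calls of single steps over all genes also fell without 7dpf_1. They went from 638 higher and 347 lower to 198 and 117 at 7 against 5 dpf. At 9 against 7 dpf they went from 365 and 93 to 80 and 21. Without 7dpf_1 the differences of the 4 genes ran from log2 -2.06 to -1.62. A more positive second step was called for 0 of the transporters in limma, edgeR and DESeq2. At an unadjusted p under 0.05 in limma 2 had one, with no background given for that cut. Of the 6 slc13a genes 3 were thus called. slc13a1 was higher at 9 than at 7 dpf in every library, while slc13a4, slc13a5a and slc12a10.1 were lower.

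Copies of a gene were compared through the log2 ratio of their counts in each library, for the 19 pairs whose symbols differ in a final letter or number. In 6 pairs the 9 and 5 dpf libraries did not overlap, which is 31.6%, where the background over 4519 such pairs in the table was 26.9%. The background pairs were formed by the same rule on symbols alone, so some may not be copies of a gene. The exact permutation test cannot give a p under 0.1 with 3 libraries against 3, and those 6 pairs were at 0.1, or 0.317 adjusted over the 19 pairs, so none passed. The libraries of 5 pairs did not overlap at 7 against 5 dpf (26.3%, background 19.3%) and those of 4 pairs at 9 against 7 dpf (21.1%, background 18.4%), with adjusted p of 0.38 and 0.475 at the least. At 7 against 5 dpf the mean log2 ratio of slc13a5a to slc13a5b moved by 1.59, with ratios of 4.00, 3.48 and 4.32 at 7 dpf and 2.49, 1.99 and 2.57 at 5 dpf. At 9 against 5 dpf the ratio of slc9a3.1 to slc9a3.2 moved most, with log2 ratios of -1.62, -1.51 and -0.96 at 9 dpf and -3.17, -2.45 and -3.19 at 5 dpf. The ratio was higher in every 9 dpf library than in any 5 dpf library. The ratio of slc34a2a to slc34a2b was -2.09, -1.33 and -1.38 at 9 dpf and -0.76, -1.06 and -0.77 at 5 dpf, so that slc34a2b held a larger share of the pair's reads in every 9 dpf library than in any 5 dpf library. For slc9a6a over slc9a6b it was 2.84, 3.68 and 3.92 at 9 dpf and 2.74, 2.35 and 2.30 at 5 dpf. The ratios slc12a7a over slc12a7b, slc12a5a over slc12a5b and slc8a1a over slc8a1b were also higher in every 9 dpf library, by 1.04, 0.42 and 0.36 on average.

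**Figure D4:**
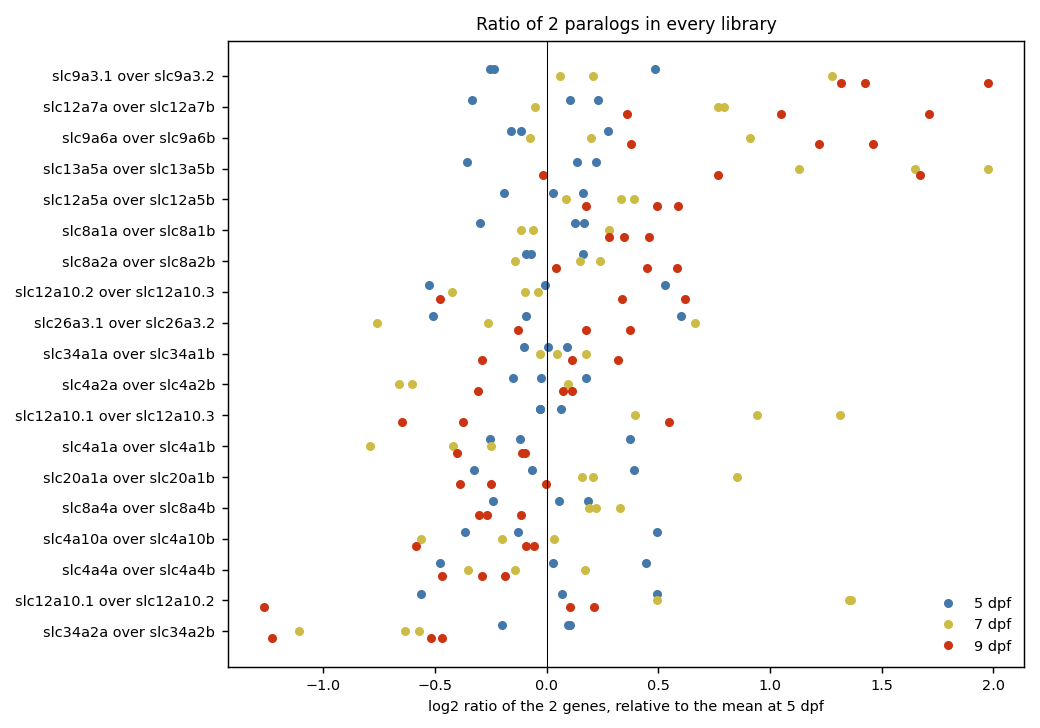
Log2 ratio of the normalized counts of 2 gene copies in each library, less the mean ratio at 5 dpf (horizontal axis), for the 19 pairs (rows), coloured by age, 3 points per age. The pair slc9a3.1 over slc9a3.2 has the highest mean at 9 dpf, and slc34a2a over slc34a2b lies to the left at 7 and 9 dpf.

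Several of these transporters are also known from the kidney, and dissected intestines can carry other tissue. Of 15 kidney genes 0 passed at 9 against 5 dpf in limma, the tool run on this list, where the background was 12.6% higher and 4.28% lower. At an unadjusted p under 0.05, 2 kidney genes were higher and 2 lower, with no background given for that cut. Their summed counts were 12387 to 17204 at 5 dpf, 16717 to 23855 at 7 dpf and 17179.5 to 24667 at 9 dpf, most of them from the pump subunit atp1a1a.4, and their median change at 9 against 5 dpf was log2 -0.23. Of the 15 enterocyte genes 6 were higher and 0 lower at 9 against 5 dpf, or 40% higher. The background was 12.6% of all genes tested and 27.5% of those with a mean of 150 or more. At 7 against 5 dpf 2 enterocyte genes were higher, where the background was 2.63%. The part of enterocyte genes in the rises of slc13a1, slc34a2b and the slc4a4 genes was not tested. Exocrine pancreas genes, whose duct and acinar cells carry some of these exchangers, summed to 3328 to 11753 at 5 dpf, 8691 to 20914 at 7 dpf and 7045 to 11901 at 9 dpf. The 15 liver genes summed to 1516 to 6401 at 5 dpf, 2822 to 5895 at 7 dpf and 2716 to 4077 at 9 dpf. Their median change at 9 against 5 dpf was log2 -0.94. Of these liver genes 1 was called lower, or 6.67%, where the background was 4.28%. At an unadjusted p under 0.05 in limma, 1 was higher and 7 were lower, and no background is given for that cut.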

How the data were processed

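RNA was sequenced as total RNA depleted of ribosomal RNA from 9 libraries, 3 per age, each of 10 pooled intestines. The deposited values are a signal: the submitters' processing notes name STAR 2.5.2b, DESeq2 1.16.1 and the build GRCz10, and the values show that the authors divided each gene's read count by 1 size factor per library. Whole reads came back for 100% of values within a relative tolerance of 1e-06. The annotation and any strand setting are not given in the sources used here, so overlapping genes cannot be separated, and total RNA also holds unspliced transcripts.

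A gene was tested if 3 or more libraries reached a value of 10, which kept 24298 of 30263, and all 70 transporters were among them. Trended and robust variances were used in limma 3.58.1, fitted to log2(value + 1) of all 9 libraries. P values were adjusted by Benjamini-Hochberg over all genes tested in a contrast, and a gene passed under 0.05. Adding 1 understates changes of weakly read genes. The contrasts were the 3 age pairs and the difference of the 2 steps. Ratios of copies were tested by a two-sided exact permutation test. Alternatives were other pseudocounts, filters and scalings, edgeR 4.0.16, DESeq2 1.42.0, a replicate block and leaving out each library. The pipeline was also run on simulated data with 200 changed genes and the same setting of spread for every gene. The outcome of that run is not reported here.

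Genes that passed are named, those changed 2-fold or more in a comparison they passed with every library, plus the most read gene of each family, partner genes by the largest changes, and other genes to account for the families. The members and lists were chosen with earlier results of these data known. Symbols are those of the table, and 68 of the 70 identifiers are in the gene name table used as reference. Which genes adjoin was read from RefSeq's GRCz12tu, where 61 of 68 symbols were found. The 15 peak lists of histone marks and inputs were not used here. The values of some genes are not reported here.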

Additional observations from a re-analysis of the deposited data

Results flagged for a closer look

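For 4 genes the change from 7 to 9 dpf differed from the change from 5 to 7 dpf by the test of that difference in limma. The second step minus the first was log2 -2.18 for slc12a10.1, -1.74 for slc13a1, -1.70 for slc13a4 and -1.75 for slc13a5a. The first step of slc13a1 was log2 2.49 and its second 0.75, while in the other 3 genes the second step was negative. Each of the 4 calls was lost without 7dpf_1, with adjusted p from 0.105 to 0.192. No count of this difference over all genes is given for that fit. The differences were then log2 -2.06 for slc12a10.1, -1.89 for slc13a1, -1.62 for slc13a4 and -1.71 for slc13a5a.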

How the results depend on the processing

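Of the 30 calls of transporters over the 4 contrasts, 12 held under all alternatives run and 18 were lost in at least 1, and no change turned its sign. Both pseudocounts, the stricter filter, TMM scaling, edgeR, the fit of only the 2 ages compared and the replicate block lost none of the 30. Without a filter 3 were lost, and 1 each after quantile scaling, after cyclic loess and in DESeq2, where the cause was not tested. Leaving out 7dpf_1 lost 15 and 9dpf_3 lost 10, and the other libraries between 1 and 7 each, with fewer samples in the fit. Without 7dpf_1 the calls over all genes at 7 against 5 dpf were 198 higher and 117 lower, against 638 and 347 with it. Quantile scaling moved the fallers at 9 against 5 dpf to 19, at 9 against 7 dpf to 10 and at 7 against 5 dpf to 6, and cyclic loess to 19, 11 and 4. Over all genes, in the same order, lower calls went from 1041, 93 and 347 to 2395, 661 and 1046, and to 2346, 789 and 997. Among the transporters both scalings gave 1 riser at 9 against 7 dpf, as did DESeq2, and DESeq2 gave 2 fallers at 7 against 5 dpf. Over all genes DESeq2 called 719 higher at 9 against 7 dpf and 421 lower at 7 against 5 dpf. Over the libraries left out in turn, risers ran from 2 to 7 at 7 against 5 dpf. They ran from 0 to 1 at 9 against 7 dpf and from 5 to 8 at 9 against 5 dpf. Fallers ran from 0 to 2, 1 to 5 and 4 to 11 in the same order. Genes with a more negative second step ran from 0 to 4, and 0 had a more positive one. Pairs of copies without overlap at 9 against 5 dpf ran from 6 to 9. Leaving out a library can only keep or add such pairs, so that range is no check on the count of 6. No background is given for pairs with a library left out. Over all genes, edgeR on the whole reads called 3096 higher and 1512 lower at 9 against 5 dpf, TMM scaling 2838 and 1635, and limma as used 3053 and 1041. With the replicate number as a block, the transporters called at 9 against 5 dpf were still 6 higher and 9 lower, and those lower at 9 against 7 dpf were 4. Deviations of libraries with the same number correlated by -0.42 to 0.47, and 1 of 9 libraries correlated best with its own number, so the numbers were not read as pairs. The comparison of peaks at the genes' starts was not run, since gene positions on GRCz10 were not used here.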
